A study of Homo sapiens with 9 samples.

Results

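RN7SK, RMRP, RPPH1, RN7SL1, RN7SL2, RN7SL3, SCARNA7 and SCARNA10 are structural RNAs, each of which works as the RNA core of a particle and carries no poly(A) tail in its mature form. They were chosen by gene name, and the 8 names matched 9 of the 60966 gene identifiers in the transcript tables, because RMRP is listed under 2 identifiers. Each identifier held 1 transcript, so the gene sums equal the transcript values, and none of the 9 transcripts was one that the authors had assembled from the reads. The tables come from RNA-seq of H1299, a cell line from a human non-small cell lung carcinoma, with 3 samples transfected with a scrambled control siRNA (Scramble), 3 given Si-FIBP#1 (Si-FIBP#1 cells) and 3 given Si-FIBP#2 (Si-FIBP#2 cells), siRNAs directed at different sites of FIBP, collected 48 h after transfection. All 9 samples share the cell line and the transfection, and an siRNA lowers a message only in part and for a time, so the depleted samples still held FIBP RNA. Messenger RNA was isolated with oligo(dT) beads before the cDNA was made, a step intended to keep RNAs that end in poly(A). The study asked which transcripts change on depletion of FIBP, and the question here is what was measured for RNAs that the selection step should leave behind.

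These RNAs do basic work in every cell. RN7SK holds the elongation kinase P-TEFb in an inactive complex with HEXIM, LARP7 and MEPCE proteins. RMRP and RPPH1 are the catalytic RNAs of RNase MRP, which acts in ribosomal RNA processing, and of RNase P, which trims the 5′ end of tRNA precursors. RN7SL1, RN7SL2 and RN7SL3 are copies of 7SL, the RNA of the signal recognition particle (SRP), which brings ribosomes making secreted or membrane proteins to the endoplasmic reticulum. SCARNA7, a box C/D RNA, and SCARNA10, which joins a box C/D and a box H/ACA domain, are guide RNAs of the Cajal body that direct modification of spliceosomal RNAs and are released from introns. All but the SCARNAs are made by RNA polymerase III, whose transcripts end in a short run of U.

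How far the 3 RN7SL copies resemble one another decides how reads are divided among them. Transcripts were read from the GENCODE release 29 annotation (GRCh38), whose transcript lengths equal those in the deposited tables for all 9 transcripts. RN7SL1 (ENSG00000276168, 299 nt) lies at chr14:49586580-49586878 on the plus strand, within an intron of RPS29, which runs on the opposite strand. It lies wholly within a second non-coding annotation on its own strand, AL139099.4, for which the deposited data list no value. RN7SL2 (ENSG00000274012, 300 nt) lies at chr14:49862550-49862849 and RN7SL3 (ENSG00000278771, 299 nt) at chr14:49853616-49853914, both on the minus strand, RN7SL2 within an intron of the non-coding gene AL627171.2, which was at 1.42 FPKM at most. RN7SL1 and RN7SL2 were identical at 98.3% of the aligned positions, with 4 mismatches and 1 gap. RN7SL3 was identical to RN7SL1 at 97.7% of positions and to RN7SL2 at 96%. Of the stretches of 150 nt, the length of 1 read, 56 of 150 in RN7SL1 and 56 of 151 in RN7SL2 occurred unchanged in another copy, against 0 of 150 in RN7SL3. An annotated RN7SL pseudogene held 60 of the stretches of RN7SL1 and 60 of those of RN7SL2, unchanged. These counts take single reads without a mismatch, although reads came in pairs, so how pairs were divided among the 3 copies was not tested. By single reads the division between RN7SL1 and RN7SL2 is uncertain, and the 3 copies are not independent measurements.

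RMRP is shown because it was split over 2 overlapping annotations. The 268-nt one (ENSG00000269900, chr9:35657751-35658018, minus strand, annotated as a lincRNA) contains the whole of the 264-nt one (ENSG00000277027, chr9:35657754-35658017, annotated as a ribozyme), and the capitals mark the 1 base at the 5′ end and the 3 bases at the 3′ end that it has in addition.
RMRP: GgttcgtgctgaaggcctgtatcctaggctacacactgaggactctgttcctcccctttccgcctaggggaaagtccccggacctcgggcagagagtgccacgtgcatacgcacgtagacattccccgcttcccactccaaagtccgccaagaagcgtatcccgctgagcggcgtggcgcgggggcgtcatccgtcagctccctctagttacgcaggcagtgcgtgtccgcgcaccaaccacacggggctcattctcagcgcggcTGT
The first 120 bases of RN7SK (ENSG00000283293, 328 nt, chr6:52995621-52995948, plus strand) hold the 5′ hairpin that HEXIM proteins bind, in which the motif GATC, in capitals, recurs.
RN7SK: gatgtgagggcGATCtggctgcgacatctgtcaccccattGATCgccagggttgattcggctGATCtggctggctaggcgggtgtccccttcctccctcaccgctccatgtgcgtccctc
GATC starts at positions 12, 41 and 63 of RN7SK. It reads the same on both strands and overlaps no other motif searched, and 3 or more copies within the first 120 bases were found in 1.34% of the 7515 annotated transcripts of 250 to 350 nt. The first 60 bases of SCARNA7 (ENSG00000238741, 330 nt, chr3:160514907-160515236, minus strand, in an intron of KPNA4) and SCARNA10 (ENSG00000239002, 330 nt, chr12:6510222-6510551, plus strand, in an intron of NCAPD2) are given with the box C letters TGATGA in capitals.
SCARNA7: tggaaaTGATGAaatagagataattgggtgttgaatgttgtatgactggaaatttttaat
SCARNA10: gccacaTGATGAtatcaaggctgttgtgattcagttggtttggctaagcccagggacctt
In both, TGATGA, searched on the RNA strand, starts at position 7 and the last CTGA, the box D letters, starts at position 322. TGATGA lay within the first 60 bases of 2.42% of the same 7515 transcripts. RPPH1 (ENSG00000277209, 333 nt, chr14:20343075-20343407, minus strand) is not drawn out, since no result turns on its letters. None of the 9 transcripts holds a run of A longer than 4, and the longest run was 2 in RPPH1, 3 in RN7SK, both RMRP annotations and SCARNA10, and 4 in the RN7SL copies and SCARNA7. Runs of at least 5 A were found in 39.1% of the 7515 transcripts of like length.

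Depletion of FIBP was seen in every depleted sample. FIBP was at 88.4, 79.5 and 77.7 FPKM (fragments per kilobase of transcript per 1000000 mapped fragments) in Scramble, at 7.49, 7.77 and 4.30 FPKM in Si-FIBP#1 cells and at 7.13, 5.92 and 8.21 FPKM in Si-FIBP#2 cells. Of the markers of H1299 and of epithelial cells, 5 of 6 passed the filter on low values. With each siRNA 4 of the 5 fell (limma, adjusted p below 0.05), where 19.9% and 17.7% of all tested genes fell. KRT8, KRT18 and VIM fell with both siRNAs, EGFR with Si-FIBP#1 alone and MYC with Si-FIBP#2 alone. The keratin KRT18 had log2 fold changes of -1.19 and -1.45. Of 10 markers of other cells 1 passed the filter, CD68, a lysosomal protein, which rose by 0.27 and 0.90 (limma, adjusted p = 0.0387 and 5.54e-05). The other 9 summed to 0.08 to 0.44 FPKM in Scramble, 0.51 to 1.34 FPKM in Si-FIBP#1 cells and 0.88 to 2.02 FPKM in the Si-FIBP#2 group, and COL1A1, a collagen, was the highest of them in every depleted sample, at 0.35 to 1.59 FPKM. CD3E of T cells was at 0 in all 9 samples, the leukocyte gene PTPRC at 0.27 FPKM at most, and the endothelial genes PECAM1 and CDH5 at 0.20 and 0.04 FPKM at most. These markers moved with the same groups as the RNAs described next, and their part in those results was not tested. The tables hold no counts, but low FPKM values fell on steps that show what 1 fragment is worth, and from these the depth was estimated at 19722230 to 23460964 fragments a library. The mean fragment length fitted with it was 292, 272 and 271 nt in Scramble. It was 267, 266 and 270 nt in the Si-FIBP#1 group and 270, 263 and 266 nt in the Si-FIBP#2 group. Every depleted library thus lay below every Scramble library, and the part of this difference in the values of short RNAs was not tested.

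The RN7SL copies made up nearly all of what was measured of these RNAs. In FPKM, which is per length, the order of the means over Scramble was RN7SL2, RN7SL1, RN7SL3, RMRP (both annotations summed), RN7SK and then SCARNA10, RPPH1 and SCARNA7. The ranges of RN7SL2 and RN7SL1 did not overlap in Scramble, nor did those of RN7SL1 and RN7SL3, whereas RN7SL3 (15.6 to 22 FPKM) and RMRP (11.5 to 24.1 FPKM) overlapped, as did RMRP and RN7SK (7.2 to 12.9 FPKM). SCARNA10, RPPH1 and SCARNA7 were each listed at 0 in at least 1 Scramble sample and overlapped one another. The RN7SL copies held 96.2% to 99% of the FPKM of all 8 genes, and the 8 genes held 0.129% to 0.325% of the FPKM of a library. RPPH1, SCARNA7, SCARNA10 and each RMRP annotation by itself are listed at 0 in some samples of cells that need such RNAs, so a 0 is given as the listed value only.

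**Figure D1:**
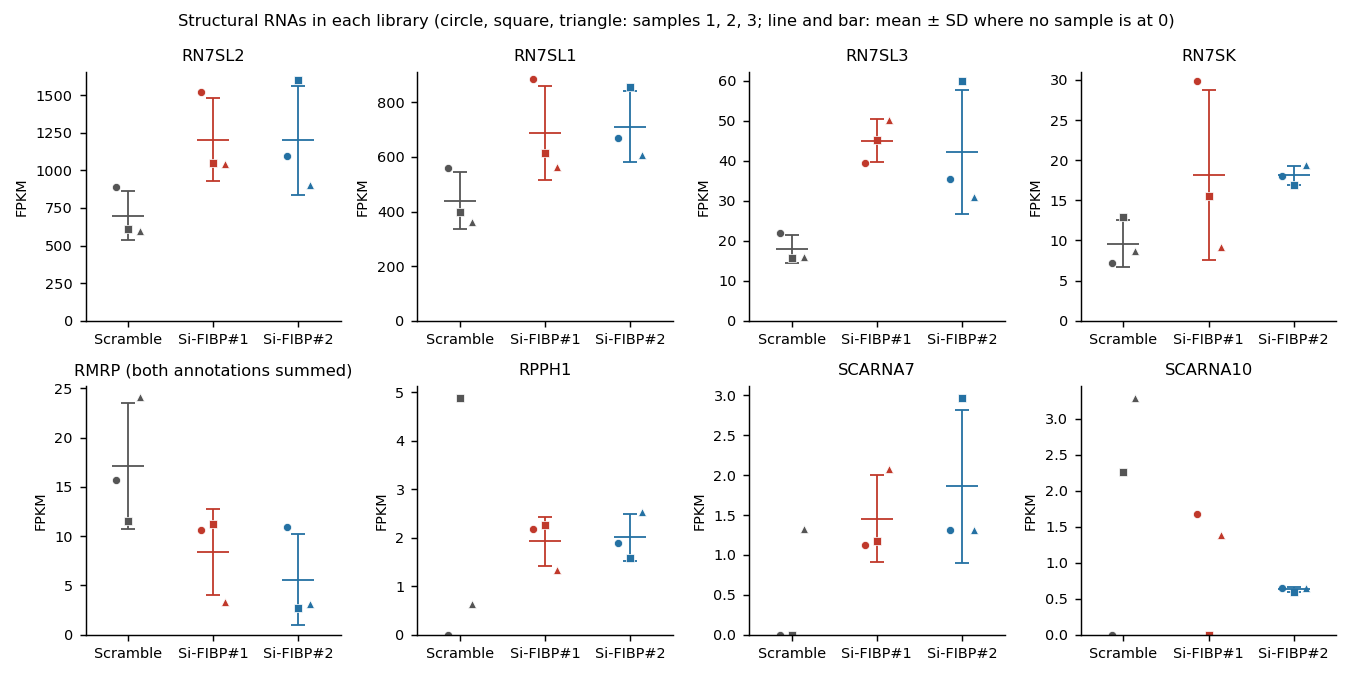
FPKM of each structural RNA (vertical axes, starting at 0) in the 3 Scramble, 3 Si-FIBP#1 and 3 Si-FIBP#2 samples. Points are samples, and the horizontal line and bar give the mean ± SD where no sample of the group was at 0. All 6 depleted samples lie above all 3 Scramble samples for RN7SL1, RN7SL2 and RN7SL3 and below them for RMRP with both annotations summed. For RMRP, Scramble sample 2 (11.5 FPKM) and Si-FIBP#1 sample 2 (11.3 FPKM) rest on about 8 fragments each.

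How much a value can say depends on the length of the RNA. A fragment from a 299-nt RNA is worth 0.941 FPKM (median of the 9 libraries), one from a 264-nt RNA 1.52 FPKM, one from a 330-nt RNA 0.662 FPKM, and one from a 1000-nt RNA 0.0658 FPKM. An FPKM of 1 thus stands for 1.51 fragments at 330 nt and for 15.2 fragments at 1000 nt. The 3 RN7SL copies together rested on 1029 to 3039 fragments a library, of which RN7SL3 held 16.8 to 71.2. RN7SK rested on 8.87 to 51.2 fragments, RMRP on 2.03 to 15.5, and RPPH1, SCARNA7 and SCARNA10 on 0 to 7.94. Short genes also varied more between samples of a group. Among tested genes with a mean of 100 to 2000 FPKM, the median SD within groups on the log2(FPKM + 1) scale was 0.286 for the 10 genes of 350 nt or shorter and 0.069 for the 797 genes of 1000 nt or longer. At 1 to 5 FPKM the corresponding values were 0.947 for 69 short genes and 0.168 for 3687 long ones.

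**Figure D2:**
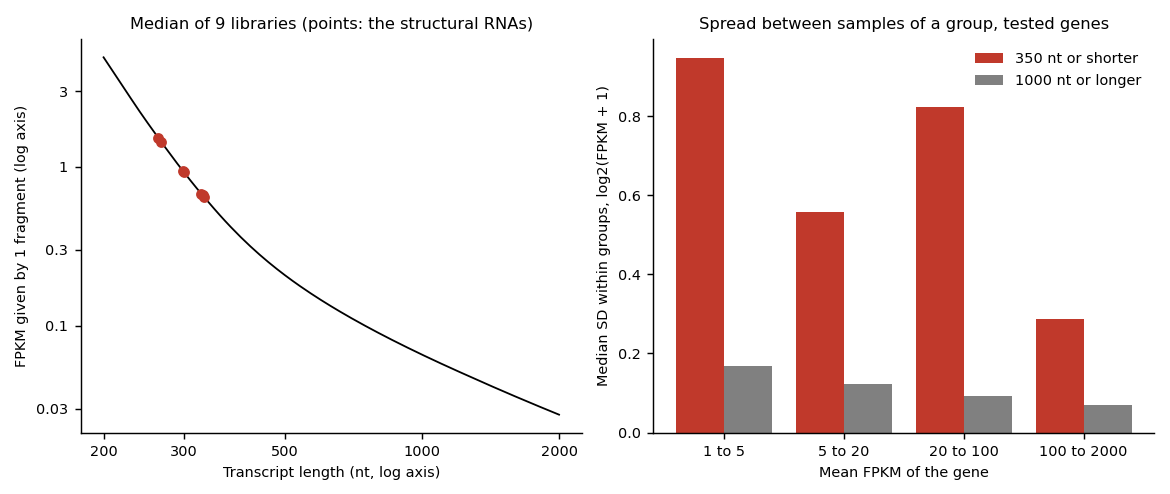
Left, FPKM given by 1 fragment (log axis) against transcript length in nt (log axis), as the median of the 9 libraries, with red points at the lengths of the structural RNAs. Right, the median SD within groups (log2(FPKM + 1)) of short and long tested genes in 4 classes of mean FPKM. At 264 to 333 nt 1 fragment is worth 0.642 to 1.52 FPKM, and short genes vary more than long genes in all 4 classes.

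The copies of 7SL RNA rose with both siRNAs. RN7SL2, the most abundant copy, was at 888, 611 and 598 FPKM in Scramble, against 1523, 1049 and 1040 in the Si-FIBP#1 group and 1095, 1601 and 902 in the Si-FIBP#2 group. All 6 depleted samples were above the highest Scramble sample, although Si-FIBP#2 sample 3 exceeded Scramble sample 1 by little. The mean went from 699 ± 164 FPKM (SD, n = 3) to 1204 ± 276 and 1199 ± 361 FPKM. This was a log2 fold change of 0.78 for Si-FIBP#1 and of 0.76 for Si-FIBP#2, both past the test (limma fit across all genes, standard error 0.23, adjusted p = 0.0191 and 0.0216 after Benjamini-Hochberg adjustment).

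RN7SL1 was at 560, 398 and 362 FPKM in Scramble, against 884, 615 and 564 in the Si-FIBP#1 group and 669, 857 and 606 in the Si-FIBP#2 group. Again no depleted sample reached down to the Scramble samples, although Si-FIBP#1 sample 3 (564 FPKM) exceeded Scramble sample 1 (560 FPKM) by little. The highest samples were the same as for RN7SL2 in each group. Fold changes of RN7SL1 were 0.64 and 0.70 on the log2 scale (limma, adjusted p = 0.027 and 0.0177). RN7SL3, the rarest copy and the one with no 150-nt stretch in common with another copy, was at 22, 15.6 and 16.1 FPKM in Scramble, against 39.5, 45.1 and 50.3 in the Si-FIBP#1 group and 35.5, 60 and 31 in the Si-FIBP#2 group. Its groups were further apart than those of the other copies. The log2 fold change of RN7SL3 was 1.29 (95% interval 0.80 to 1.79, limma, adjusted p = 0.00108) in Si-FIBP#1 cells and 1.15 (0.65 to 1.65, adjusted p = 0.00208) in Si-FIBP#2 cells, and it was the sole copy past 2-fold. Because 1 was added to each FPKM before the logarithm was taken, fold changes of RNAs at low levels are understated, and both comparisons use the same 3 Scramble samples.

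Estimated fragments undo the scaling of FPKM by effective length, so they are not adjusted for the fragment length of a library. At 300 nt the fitted effective length, the mean number of places where a fragment can start, ran from 41.2 to 56.2 over the libraries. Estimated fragments are given per 1000000 fragments of the library as estimated CPM. On this scale the 3 copies together were at 60.2, 50.7 and 49.5 estimated CPM in Scramble, against 130, 89.6 and 84.2 in the Si-FIBP#1 group and 91.5, 141 and 82.4 in the Si-FIBP#2 group. Scramble sample 1, with its longer fragments, stood closer to the other Scramble samples than in FPKM. In the fit on estimated CPM, a scale added after seeing the data, the log2 fold changes of RN7SL1, RN7SL2 and RN7SL3 were 0.79, 0.94 and 1.44 in Si-FIBP#1 cells and 0.89, 0.95 and 1.34 in Si-FIBP#2 cells (limma, adjusted p from 0.000626 to 0.0016). RN7SL3 made up 1.48% to 1.63% of the fragments of the 3 copies in Scramble, 1.6% to 3.01% in Si-FIBP#1 cells and 1.96% to 2.36% in Si-FIBP#2 cells. The FPKM ratio of RN7SL1 to RN7SL2 was 0.606 to 0.651 in Scramble, 0.542 to 0.586 in Si-FIBP#1 cells and 0.535 to 0.673 in Si-FIBP#2 cells. The Si-FIBP#1 ratios were all below those of Scramble, while the Si-FIBP#2 ratios enclosed them.

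The spread within the depleted groups was wide, and 1 sample in each stood above the other 2. Si-FIBP#1 sample 1 and Si-FIBP#2 sample 2 held 3039 and 3012 fragments of the 3 RN7SL copies, against 1648 to 2042 in the other 4 depleted samples and 1029 to 1281 in Scramble. Without Si-FIBP#1 sample 1 the log2 fold change of RN7SL1 with Si-FIBP#1 was 0.45 (limma, adjusted p = 0.0919) and that of RN7SL2 0.60 (adjusted p = 0.0704). Without Si-FIBP#2 sample 2 the values with Si-FIBP#2 were 0.56 (adjusted p = 0.0664) for RN7SL1 and 0.53 (adjusted p = 0.0719) for RN7SL2. Leaving out Scramble sample 2 or 3 also ended both calls at an adjusted p of 0.05 (0.0569 to 0.0944), at log2 fold changes of 0.51 to 0.64 for RN7SL1 and 0.66 to 0.70 for RN7SL2. So did testing without a filter on low values (adjusted p from 0.0633 to 0.0889), which left the fold changes as they were. RN7SL3 stayed past an adjusted p of 0.05 when any 1 of the 9 samples was left out, at log2 fold changes of 1.21 to 1.44 in Si-FIBP#1 cells and of 0.87 to 1.34 in Si-FIBP#2 cells. Its 2-fold call with Si-FIBP#2 was lost without Si-FIBP#2 sample 2.

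RN7SK also tended to higher values, but its groups overlapped in part. It was at 7.20, 12.9 and 8.74 FPKM in Scramble, against 29.8, 15.5 and 9.19 in the Si-FIBP#1 group and 18, 17 and 19.4 in the Si-FIBP#2 group. The 3 Si-FIBP#2 samples were close together and above all Scramble samples, while Si-FIBP#1 sample 3 lay within the Scramble range and Si-FIBP#1 sample 1 was the highest of the 9. With Si-FIBP#1 RN7SK had a log2 fold change of 0.74 (95% interval -0.02 to 1.5, limma, adjusted p = 0.0983), and Si-FIBP#2 gave 0.88 (0.12 to 1.64, adjusted p = 0.0544). Without Si-FIBP#1 sample 3 the first came to 1.12 (adjusted p = 0.0116), and the second passed without any one of Scramble sample 2 and Si-FIBP#1 samples 1 and 3 (limma, adjusted p from 0.00983 to 0.0392). The second also passed with a filter of 5 FPKM (0.0421), with only the groups compared (0.00617) and on estimated CPM (0.0483, or 0.035 with at least 10 fragments). Over both siRNAs together it was 0.81 (adjusted p = 0.0404), a call that ended without any one of 6 of the samples and under 4 other settings. A second annotation that spans RN7SK, ENSG00000202198, was listed at 0 in all 9 samples, so no value was split off to it.

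RMRP had lower values in depleted cells when summed over its annotations, and its result turned on which annotation was read. The 264-nt annotation was at 15.7, 0 and 24.1 FPKM in Scramble, against 10.6, 11.3 and 3.35 in the Si-FIBP#1 group and 11, 2.76 and 3.08 in the Si-FIBP#2 group. The 268-nt annotation was at 11.5 FPKM in Scramble sample 2 and at 0 in the other 8, so it did not pass the filter on low values. In Scramble sample 2 the whole signal had thus been put on the longer annotation. The 264-nt annotation alone gave log2 fold changes of 0.19 (95% interval -2.18 to 2.56, limma, adjusted p = 0.898) and -0.40 (-2.77 to 1.98, adjusted p = 0.782). Without Scramble sample 2 it came to -1.85 with Si-FIBP#2 (limma, adjusted p = 0.0295).

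With both annotations summed, a step added after seeing the data, RMRP was at 15.7, 11.5 and 24.1 FPKM in Scramble, and all 6 depleted samples, at 2.76 to 11.3 FPKM, were below the lowest Scramble sample. Read so, RMRP had log2 fold changes of -1.03 (limma, adjusted p = 0.124) and -1.61 (adjusted p = 0.0252) in the Si-FIBP#1 and Si-FIBP#2 comparisons. Among all tested genes 24.3% lay below all Scramble samples in the Si-FIBP#1 group, 21.2% in the Si-FIBP#2 group and 16.5% in both. These values rest on 8.20, 8.18 and 15.5 fragments in Scramble, 8.08, 8.15 and 2.04 in Si-FIBP#1 cells and 7.06, 2.06 and 2.03 in Si-FIBP#2 cells. In whole fragments, then, Scramble samples 1 and 2 and Si-FIBP#1 samples 1 and 2 were level at about 8, so these groups were not apart. On estimated CPM neither comparison passed, at -0.86 (adjusted p = 0.244) and -1.37 (adjusted p = 0.061).

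The 3 remaining RNAs were near the level of a few fragments. RPPH1 was at 0, 4.89 and 0.64 FPKM in Scramble, against 2.18, 2.26 and 1.34 in the Si-FIBP#1 group and 1.90, 1.59 and 2.54 in the Si-FIBP#2 group. The Scramble samples enclosed all depleted samples, and since 1 of the 3 Scramble samples reached 1 FPKM, RPPH1 passed the filter on low values through the depleted ones. Its log2 fold changes were 0.44 (95% interval -0.72 to 1.61, limma, adjusted p = 0.512) and 0.49 (-0.68 to 1.65, adjusted p = 0.469). The ratio of estimated CPM to Scramble, from 10 fragments against 9 for each siRNA, was 1.08 (exact 95% interval 0.396 to 3.01) and 1.15 (0.42 to 3.2). These intervals cover counting error only, while the single Scramble libraries held 0, 7.94 and 0.988 fragments. Without Scramble sample 2, the highest, RPPH1 came to 1.18 and 1.22 on the log2 scale (limma, adjusted p = 0.00635 and 0.00526), against a control group that then lay wholly below the filter, so nothing is read from these values. A gene that spans RPPH1 on the same strand, AL355075.4, was at 0.27 FPKM at most.

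SCARNA7 was at 0, 0 and 1.32 FPKM in Scramble, against 1.12, 1.17 and 2.08 in the Si-FIBP#1 group and 1.31, 2.97 and 1.31 in the Si-FIBP#2 group, which is about 2 fragments in the highest Scramble sample and 1.96 to 4.96 in the depleted ones. It passed the filter on low values only through the depleted samples. Its rise of 1.06 (log2) in Si-FIBP#2 cells passed the test (limma, adjusted p = 0.03) while the 0.87 of Si-FIBP#1 did not (adjusted p = 0.0655). Summed over the 3 libraries of a group there were 2 fragments in Scramble, 7 in Si-FIBP#1 cells and 9 in Si-FIBP#2 cells. The ratio of estimated CPM to Scramble was 3.41 (exact 95% interval 0.65 to 33.7) in Si-FIBP#1 cells and 4.65 (0.963 to 44.3) in Si-FIBP#2 cells, intervals that cover counting error only and both include equality. The call was also lost without Si-FIBP#2 sample 2, at an adjusted p of 0.106, and one was gained with Si-FIBP#1 without Scramble sample 3, at 0.0063. SCARNA7 does not stand as support for a rise of these RNAs.

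SCARNA10 was at 0, 2.26 and 3.29 FPKM in Scramble, against 1.68, 0 and 1.38 in the Si-FIBP#1 group and 0.65, 0.59 and 0.65 in the Si-FIBP#2 group, which are 1 fragment in each Si-FIBP#2 sample. The groups overlapped, and every Si-FIBP#2 sample was below Scramble samples 2 and 3. The log2 fold changes were -0.38 (95% interval -1.55 to 0.79, limma, adjusted p = 0.582) and -0.56 (-1.73 to 0.60, adjusted p = 0.4). Without Scramble sample 1, which is at 0, SCARNA10 came to -1.20 with Si-FIBP#2 (adjusted p = 0.0301) and -1.11 over both siRNAs (limma, adjusted p = 0.0251). The ratio of estimated CPM with Si-FIBP#2, from 3 fragments against 9, was 0.345 (exact 95% interval 0.06 to 1.38, for counting error only). An annotation that overlaps SCARNA10, AC006064.5, was at 4.96 FPKM in Scramble sample 2 and at 1.87 FPKM in Si-FIBP#1 sample 2, and how reads were divided between them was not tested.

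**Figure D3:**
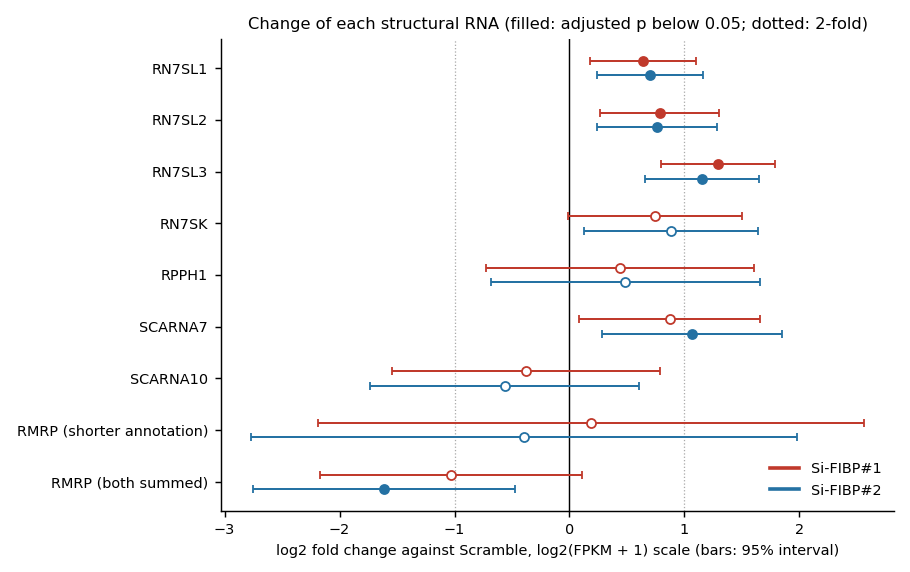
Log2 fold change against Scramble (log2(FPKM + 1) scale, horizontal axis) of each structural RNA with Si-FIBP#1 in red and Si-FIBP#2 in blue. Bars are 95% intervals, filled points passed an adjusted p of 0.05, and dotted lines mark 2-fold. RN7SL1, RN7SL2 and RN7SL3 lie above 0 with both siRNAs, and the 2 ways of reading RMRP differ in sign with Si-FIBP#1.

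Of the 9 identifiers, 8 passed the filter of 1 FPKM in 3 samples and were tested. At an adjusted p below 0.05 and a change over 2-fold, 1 was called with Si-FIBP#1 (RN7SL3), where 5.66% of all 14985 tested genes were called. With Si-FIBP#2 2 were called (RN7SL3 and SCARNA7), against 5.05% of all genes. Over both siRNAs 1 was called, RN7SL3, against 4.81%. At the adjusted p alone, 3, 4 and 5 were called in these comparisons, all higher, where 47.7%, 48.8% and 53% of all genes passed in either direction and 27.8%, 31.1% and 32.6% passed as higher. The siRNA samples lay above all Scramble samples for 3 of the 8 with Si-FIBP#1, 4 with Si-FIBP#2 and 3 with both, where this held for 34.5%, 36.1% and 26.3% of all genes. Of the 8, these are 12.5% and 25% called and 37.5% and 50% passing as higher with Si-FIBP#1 and Si-FIBP#2. A single RNA makes 12.5%, and SCARNA7 and RPPH1 are among the 8 although they passed the filter only through the depleted samples, so no excess over all genes is read from these counts.

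The median log2 fold change of the 8 tested identifiers was 0.69 in Si-FIBP#1 cells and 0.73 in Si-FIBP#2 cells, beside medians of 0.07 and 0.11 over all tested genes. No shift of the RNAs as a group is read from it, since RPPH1 and SCARNA7 passed the filter only through depleted samples, RMRP enters by 1 annotation and the RN7SL copies are not independent. Rescaling each library by its median ratio moved the latter to 0.01 in both comparisons, and under it the log2 fold changes of RN7SL1, RN7SL2 and RN7SL3 were 0.56, 0.71 and 1.22 in Si-FIBP#1 cells and 0.58, 0.64 and 1.03 in Si-FIBP#2 cells (limma, adjusted p from 0.00117 to 0.0397). Between the siRNAs 0 of the 8 were called, where 0.561% of all genes were, and 0 passed the adjusted p of limma alone, where 15.4% did. The differences of Si-FIBP#2 from Si-FIBP#1 ran from -0.58 for RMRP to 0.19 for SCARNA7, and their intervals were wide. For RN7SL2, one of the 2 best measured, the interval was -0.54 to 0.50, so these data do not show that the siRNAs act alike on it.

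Other transcripts without a poly(A) tail, or close in sequence to these RNAs, give the setting of the RN7SL values. The 677 annotated RN7SL pseudogenes, whose reads cannot always be told from those of RN7SL1 and RN7SL2, summed to 2.45 to 2.91 estimated CPM in Scramble, 4.8 to 6.25 in Si-FIBP#1 cells and 3.98 to 4.35 in Si-FIBP#2 cells. In FPKM their sums overlapped, at 28.5 to 46 FPKM in Scramble, 41 to 47.5 FPKM in Si-FIBP#1 cells and 34.7 to 52.9 FPKM in the Si-FIBP#2 group. Of the 12 tested 2 rose and 1 fell in each comparison (limma, adjusted p below 0.05), where 27.8% and 31.1% of all genes rose and 19.9% and 17.7% fell. The RN7SK pseudogenes summed to 11.7 to 18.5 fragments in Scramble, 12.2 to 18.1 in Si-FIBP#1 cells and 18.8 to 20.5 in Si-FIBP#2 cells, with 0 of 4 tested passing the adjusted p of limma in either comparison. The replication-dependent histone genes were taken by name pattern, and their typical messages end in a stem-loop in place of a tail. They summed to 220 to 227 estimated CPM in Scramble, 799 to 804 in Si-FIBP#1 cells and 634 to 777 in Si-FIBP#2 cells. Whether these reads came from messages with or without a tail was not tested. Of the 37 tested histone genes, 27 rose and 1 fell in Si-FIBP#1 cells and 26 rose and 1 fell in Si-FIBP#2 cells at an adjusted p below 0.05 (limma), where 27.8% and 31.1% of all genes rose and 19.9% and 17.7% fell. This move of the histone messages went with that of the RN7SL copies in direction, and its part in the RN7SL result was not tested. RNA5-8SN5, a ribosomal RNA without a poly(A) tail, was at 32.7, 30.9 and 13.8 FPKM in Scramble. It was at 58.5, 11.1 and 14.1 FPKM in Si-FIBP#1 cells and 38, 28.4 and 36.4 FPKM in Si-FIBP#2 cells. The groups of RNA5-8SN5 overlapped, and its log2 fold changes were -0.18 and 0.47 (limma, standard error 0.54, adjusted p = 0.802 and 0.494). It is 1 of 5 listed copies that share 1 profile over the samples. With that spread it cannot decide whether RNAs without tails rose in common, and no common rise is read from these values. In bulk RNA, fewer cells of a type and less RNA per cell cannot be told apart, and here neither can the amount of an RNA and the part of it that passed the poly(A) selection.

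**Figure D4:**
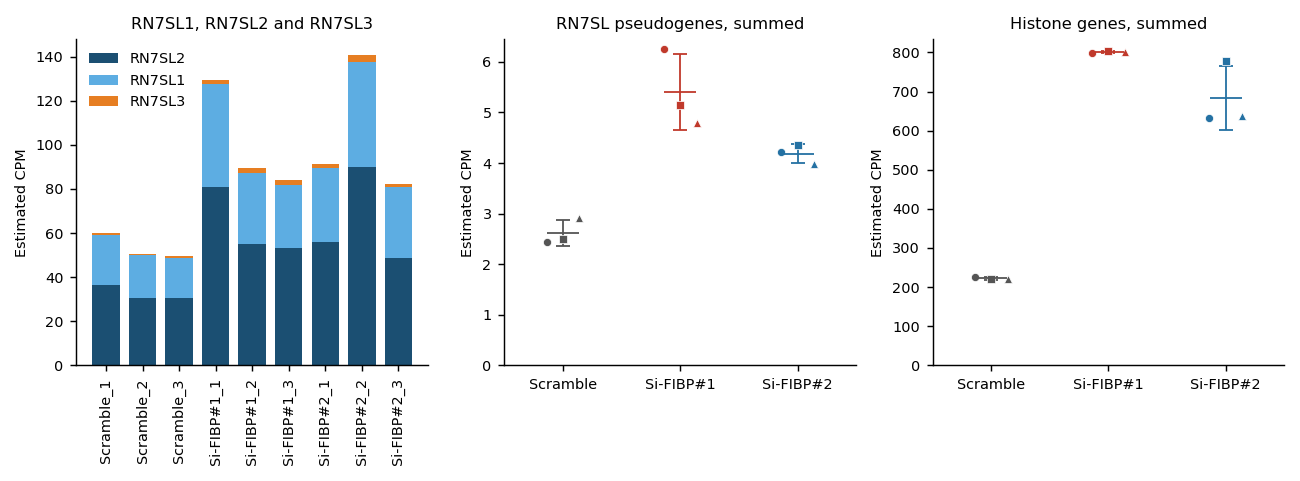
Estimated CPM (vertical axes, starting at 0) of RN7SL2, RN7SL1 and RN7SL3 stacked for each library (left), of all RN7SL pseudogenes summed (middle) and of the replication-dependent histone genes summed (right). In the middle and right panels points are samples and lines with bars are mean ± SD. The 6 depleted libraries lie above the 3 Scramble libraries in every panel.

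Other small structural RNAs were mostly below the filter. Of 48 names, among them Y RNAs, vault RNAs, spliceosomal RNAs, SCARNAs and SNORDs, 6 identifiers were tested. At an adjusted p below 0.05, 1 passed with Si-FIBP#1, SCARNA9 (log2 fold change 0.63, limma, adjusted p = 0.0355), and 0 passed with Si-FIBP#2. Among all tested genes 47.7% and 48.8% passed in these comparisons. SNORA73B and SCARNA13, the ones with the largest mean difference, were listed at 0 in 4 and 3 samples and did not pass (adjusted p from 0.359 to 0.891). SNORA73B, for instance, was at 19.7, 0 and 5.83 FPKM in Scramble.

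A pair of long nuclear RNAs processed by RNase P at their 3′ ends were read beside RPPH1. MALAT1 rose with both siRNAs, from 186, 170 and 172 FPKM in Scramble to 426, 362 and 413 FPKM in Si-FIBP#1 cells and to 239, 248 and 212 FPKM in Si-FIBP#2 cells. Its log2 fold change was 1.18 (limma, adjusted p = 2.97e-06) and 0.40 (adjusted p = 0.00193), and the difference between the siRNAs was -0.78 (adjusted p = 0.000381). NEAT1, the RNA core of paraspeckles, was at 177 to 247 FPKM in Scramble, 211 to 254 FPKM in Si-FIBP#1 cells and 197 to 219 FPKM in Si-FIBP#2 cells, and did not pass (adjusted p = 0.187 and 0.811), although its log2 fold change with Si-FIBP#1, 0.21, came to 0.36 and passed without Scramble sample 1 (limma, adjusted p = 0.00705). The mitochondrial ribosomal RNAs, which carry short tails, rose, while RNA5-8SN5, given above, did not pass in either comparison. MT-RNR2 went from 838 to 915 FPKM in Scramble to 1732 to 1906 FPKM in Si-FIBP#1 cells and 1656 to 1892 FPKM in Si-FIBP#2 cells (log2 fold changes 1.03 and 0.98, limma, adjusted p = 1.94e-06 and 3.05e-06). MT-RNR1 rose by 0.53 and 0.71 on the log2 scale (limma, adjusted p = 1.12e-05 and 2.55e-06).

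The messages of the proteins that bind these RNAs did not move as one group. Protein was not measured, and each protein named from here on stands for its message. Among the 7 proteins of the 7SK particle and P-TEFb, 4 rose in Si-FIBP#1 cells and 5 in Si-FIBP#2 cells at an adjusted p below 0.05 and 0 fell (limma), which is 57.1% and 71.4% of the list, where 27.8% and 31.1% of all genes rose, with a median log2 fold change of 0.38 and 0.26. HEXIM2, a protein that inhibits P-TEFb when bound to 7SK, went from 7.46, 7.93 and 7.18 FPKM to 14.7, 11.7 and 12.6 FPKM in Si-FIBP#1 cells and to 10.3, 11.1 and 12 FPKM in Si-FIBP#2 cells (log2 fold changes 0.71 and 0.51, adjusted p = 0.000234 and 0.00165). CDK9, the kinase of P-TEFb, rose by 0.52 and 0.56 on the log2 scale (limma, adjusted p = 5.49e-05 and 3.7e-05). HEXIM1 and MEPCE, the enzyme that caps 7SK, also passed in both comparisons, while LARP7, which holds the 3′ end of 7SK, was at 29.9 to 33.2 FPKM in all 9 samples and passed in neither (adjusted p = 0.41 and 0.291). The median over all tested genes was 0.07 and 0.11.

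Of the 11 protein subunits of RNase P and RNase MRP, 3 rose and 3 fell in Si-FIBP#1 cells and 1 rose and 2 fell in Si-FIBP#2 cells (median log2 fold change 0.14 and -0.07). The shares of 27.3% rising and 27.3% falling with Si-FIBP#1 lie beside 27.8% and 19.9% of all genes, and those of 9.09% and 18.2% with Si-FIBP#2 beside 31.1% and 17.7%. RPP25L, a homologue of the RNase P subunit RPP25, went from 17.9 to 22.8 FPKM in Scramble to 32.4 to 37.6 FPKM in Si-FIBP#1 cells and 31.4 to 34.1 FPKM in Si-FIBP#2 cells (log2 fold changes 0.74 and 0.66, limma, adjusted p = 0.000146 and 0.000304). RPP30 fell, by 0.55 and 0.53 on the log2 scale (adjusted p = 0.000467 and 0.000626). Among the 8 proteins of the SRP and its receptor, 1 rose and 2 fell in Si-FIBP#1 cells and 1 rose and 1 fell in Si-FIBP#2 cells (median 0.08 and 0.15). In percent, 12.5% rose in both comparisons and 25% and 12.5% fell, against the same shares of all genes. SRP14, which binds the Alu domain of 7SL, fell from 294 to 304 FPKM in Scramble to 209 to 225 FPKM in Si-FIBP#1 cells and 210 to 262 FPKM in Si-FIBP#2 cells (log2 fold changes -0.47 and -0.29, limma, adjusted p = 0.000942 and 0.0124). SRPRA, a subunit of the receptor, rose by 0.25 and 0.39 (limma, adjusted p = 0.00908 and 0.000787).

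Proteins of the Cajal body and of box guide particles were lower for the most part, with 8 of 13 falling and 2 rising in Si-FIBP#1 cells and 9 falling and 1 rising in Si-FIBP#2 cells (limma, adjusted p below 0.05), where 19.9% and 17.7% of all genes fell. WRAP53, which brings guide RNAs to the Cajal body, fell from 20.4 to 22.4 FPKM to 10.9 to 12.9 FPKM in Si-FIBP#1 cells and 12.4 to 12.7 FPKM in Si-FIBP#2 cells (log2 fold changes -0.82 and -0.74, adjusted p = 1.82e-05 and 3.9e-05). SNU13, a core protein of box C/D particles, fell by 0.74 and 0.64 on the log2 scale (limma, adjusted p = 2.08e-06 and 5.32e-06). The host of SCARNA10, NCAPD2, a condensin subunit, fell from 131 to 137 FPKM to 79.1 to 82.9 FPKM and 73.6 to 80.2 FPKM (log2 fold changes -0.71 and -0.80, limma, adjusted p = 3.51e-06 and 2.28e-06). KPNA4, the host of SCARNA7 and an importin, was at 24.5 to 25.7 FPKM in Scramble and at 23.5 to 26.1 FPKM with Si-FIBP#1 (adjusted p = 0.991), and rose by 0.20 with Si-FIBP#2 (limma, adjusted p = 0.0203). That call was lost on median ratio scaling, at 0.077 (adjusted p = 0.312), and without Scramble sample 1, Scramble sample 2 or Si-FIBP#2 sample 3 (limma, adjusted p up to 0.0679).

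RNA polymerase III and its factors held genes of both directions. Of 29, 9 rose and 7 fell for Si-FIBP#1 and 10 rose and 7 fell for Si-FIBP#2 (limma, adjusted p below 0.05, median 0.04 and -0.02), which is 31% and 34.5% higher and 24.1% lower in each, where 27.8% and 31.1% of all genes were higher and 19.9% and 17.7% lower. POLR3B, one of the 2 largest subunits of the enzyme, rose from 5.34 to 5.97 FPKM to 8.07 to 9.55 FPKM and 8.62 to 9.96 FPKM (log2 fold changes 0.59 and 0.64, limma, adjusted p = 0.000498 and 0.000299). GTF3A, the factor for 5S ribosomal RNA genes, fell by 0.54 and 0.40 on the log2 scale (adjusted p = 0.000186 and 0.00109). Of 20 proteins that trim, tail or degrade the 3′ ends of such RNAs, 11 fell and 3 rose in Si-FIBP#1 cells and 12 fell and 2 rose in Si-FIBP#2 cells (median -0.19 and -0.31). That is 55% and 60% falling, beside the 19.9% and 17.7% of all genes, and 15% and 10% rising, beside 27.8% and 31.1%. EXOSC8, a ring subunit of the RNA exosome, fell from 47 to 53.2 FPKM to 21.8 to 24.1 FPKM with Si-FIBP#1 (log2 fold change -1.12, limma, adjusted p = 2.54e-06) and to 23.9 to 26.2 FPKM with Si-FIBP#2 (-0.98, adjusted p = 5.81e-06). EXOSC2, a cap subunit, fell by 0.66 and 0.83 (limma, adjusted p = 0.000131 and 3.27e-05).

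**Figure D5:**
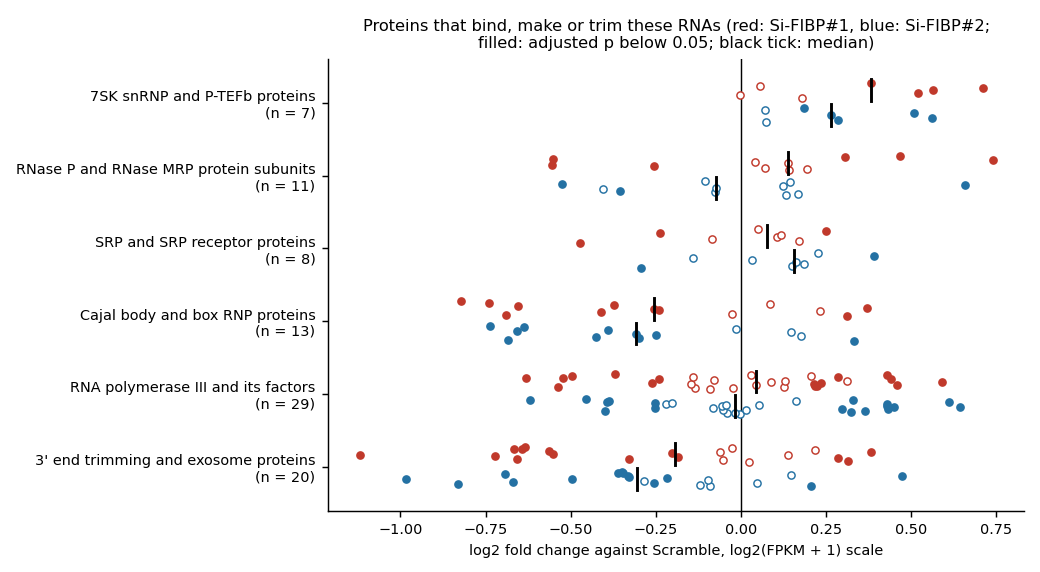
Log2 fold change against Scramble (log2(FPKM + 1) scale, horizontal axis) of each tested gene of 6 lists of proteins that bind, make or trim the structural RNAs, with Si-FIBP#1 in red and Si-FIBP#2 in blue. Filled points passed an adjusted p of 0.05 and the black tick is the median of the list. The medians of the 7SK list lie at 0.38 and 0.26, and those of the Cajal body list at -0.26 and -0.31.

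The genes whose pattern over the 9 samples was most like that of the structural RNAs were sought by Pearson's r with the mean standardised log2 profile of the 8 tested identifiers. RNLS, an oxidase, came first at r = 0.978, followed by the non-coding transcripts AC126175.1 (0.969), AC097359.2 (0.961) and GARS1-DT (0.96) and an unnamed transcript assembled by the authors (0.958). RNLS was at 5.28, 5.47 and 6.38 FPKM in Scramble, against 11.4, 7.88 and 8.97 in the Si-FIBP#1 group and 10.1, 11.5 and 8.18 in the Si-FIBP#2 group. RNLS was picked by this correlation, and it shared with RN7SL1 and RN7SL2 the highest sample in each depleted group. Of the 14977 genes compared, 155 had an r over 0.9, and the median was 0.237, a description over 9 samples that share 3 groups, libraries and depth. The profile takes in RPPH1 and SCARNA7, which passed the filter only through depleted samples, and RMRP by its shorter annotation. It also counts RN7SL copies that are not independent. Nothing about the RNAs as a group is read from the ranking.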

How the data were processed

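RNA-seq was analysed from 9 H1299 samples, 3 for each of Scramble, Si-FIBP#1 and Si-FIBP#2, grouped by the sample labels. Per the labels, libraries were poly(A) selected, size selected at 300 bp, amplified for 15 PCR cycles and read as pairs of 150 bp. The submitters' processing notes name HISAT2 and StringTie, and their versions and the genome build are not given in the sources used here. The authors deposited 1 table of transcript FPKM per sample, to 2 decimals, in which the unit was inferred from the values. The labels do not say whether samples of a group came from separate cultures, so p-values measure the spread between these samples, which may be technical.

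FPKM were summed per gene and put on a log2(FPKM + 1) scale. A gene was kept when 3 or more samples reached 1 FPKM. A single limma 3.58.1 model (R 4.3.3, empirical Bayes with a trend) took in the 9 samples, with Benjamini-Hochberg adjustment over the 14985 genes tested. Calls needed an adjusted p below 0.05 and a change over 2-fold. Fragments were estimated as FPKM times the effective length, with depth and fragment length fitted to the steps of low values, and estimated CPM are these per 1000000 fragments of a library. That scaling by effective length matched the steps is inferred from the values, and the notes do not state it for StringTie. Of these values 85.2% to 87.9% lay within 0.1 of a whole number. No count test across genes was run, as the values are not counts. Exact intervals for RPPH1, SCARNA7 and SCARNA10 used fragments rounded to whole numbers and pooled over the 3 libraries of a group. They leave out the spread between libraries. Positions and sequences came from GENCODE release 29 (GRCh38), matched by Ensembl identifier. The sequences of the RN7SL copies and 1 gene of the marker lists are not reported here.

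The members and gene lists were chosen with earlier results of these data known. Named genes were the members, FIBP, the genes called with either siRNA in each list other than the marker lists (filled up to 2 a list by the largest mean change) and the 5 genes most like the members. HEXIM1, MEPCE, LARP7, SCARNA9, KRT18, CD68, COL1A1, CD3E, PTPRC, PECAM1, CDH5 and genes overlapping members were named after their values were seen. Alternatives were a pseudocount of 0.1, no filter or 5 FPKM, median ratio and TPM scaling, Ensembl transcripts only, only the groups compared, no trend, no fold threshold, a block on replicate number and omission of each sample in turn. Sequences were handled with Biopython 1.88, plots with matplotlib 3.10.9 and tables with pandas 2.3.3, scipy 1.17.1 and numpy 2.4.6 under Python 3.11.15.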

Additional observations from a re-analysis of the deposited data

Results flagged for a closer look

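With 3 samples a group, single samples were not tested for standing apart. The effect of the siRNAs differed from each other, by the test of Si-FIBP#2 against Si-FIBP#1 itself, for 2 of the genes named by rule. MALAT1 was lower in the Si-FIBP#2 group, at a log2 difference from Si-FIBP#1 of -0.78 (limma, standard error 0.08, adjusted p = 0.000381), with all 3 Si-FIBP#2 samples below all 3 Si-FIBP#1 samples. MT-RNR1 was higher with Si-FIBP#2 by 0.18 (limma, standard error 0.04, adjusted p = 0.022), with all 3 samples above those of Si-FIBP#1. Among all genes tested, 15.4% passed in that comparison. No structural RNA was among them.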

How the results depend on the processing

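RMRP, RPPH1, SCARNA7 and SCARNA10 rested on at most 15.5 fragments a library, and their calls came and went with single samples. RN7SL1, RN7SL2, RN7SL3 and RN7SK were higher with each siRNA under every alternative run. With each siRNA RN7SL3 alone of the 8 kept its adjusted p below 0.05 under all of them, and over both siRNAs RN7SL3 and RN7SL2 did (RN7SL2 at most 0.0441). Where a call or direction was lost, the cause was not tested beyond what the setting itself changes.

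The members called numbered 1, 2, 1 and 0 with Si-FIBP#1, with Si-FIBP#2, with both and between the siRNAs. With no fold change threshold they numbered 3, 4, 5 and 0, and with a pseudocount of 0.1 2 were called with Si-FIBP#1 and 2 with both. With Si-FIBP#2 1 was called with no filter, with a filter of 5 FPKM (5 members left) and with only the groups compared, and TPM scaling gave 2 with both. Leaving out each sample gave 1 to 2 with Si-FIBP#1, 0 to 4 with Si-FIBP#2 and 1 to 4 with both, the 4 without Scramble sample 2, among them RMRP as lower. On estimated CPM, added after seeing the data, the 2 with Si-FIBP#2 were RN7SL3 and RN7SK. Over all genes 848, 757, 721 and 84 were called, 7146, 7309, 7938 and 2304 with no fold change threshold, 1498, 1411, 1418 and 172 with a pseudocount of 0.1, 2664, 2687, 2784 and 326 on estimated CPM, and 2134, 2118, 2090 and 253 there with at least 10 fragments, also added after seeing the data. Higher calls were 382 of 848 with Si-FIBP#1 and 438 of 757 with Si-FIBP#2, against 1774 of 2664 and 2069 of 2687 on estimated CPM, 849 of 1498 and 953 of 1411 with a pseudocount of 0.1, and 321 of 864 and 329 of 778 on median ratio scaling. Leaving out each sample gave 75 to 132 genes between the siRNAs, the highest without Si-FIBP#2 sample 2.

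Directions turned only for results that had not passed. RMRP with Si-FIBP#1 went from 0.19 to -1.03 (adjusted p = 0.124) with both annotations summed, to -0.86 with both summed on estimated CPM (0.19 on estimated CPM alone) and to between -1.26 and 1.06 on leaving out a sample. With a pseudocount of 0.1 RMRP was 0.47 with Si-FIBP#2 and 0.81 with both, and leaving out a sample gave -1.85 to 0.48 and -1.56 to 0.77. Likewise RPPH1 ranged from -0.10 to 1.18, -0.058 to 1.22 and -0.080 to 1.20, negative without Scramble sample 1, and SCARNA10 with Si-FIBP#1 from -1.01 to 0.068. Leaving out a sample moved KPNA4 with Si-FIBP#1 between -0.034 and 0.038, SNORA73B between -1.43 and 0.83, SCARNA13 between -1.12 and 0.063, and NEAT1 with Si-FIBP#2 between -0.046 and 0.19. KPNA4 was 0.0025 on Ensembl transcripts only and NEAT1 -0.083 on median ratio scaling.

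Deviations of samples with the same replicate number correlated at -0.06 to 0.10, and those of samples with different numbers at -0.14 to 0.05. The ranges overlapped and the highest values were of samples with the same number, so these correlations do not settle whether the numbers pair the samples. With the replicate number as a block 853, 760, 725 and 88 genes and 1, 2, 1 and 0 members were called, and the adjusted p was 0.0505 for RN7SK over both siRNAs and 0.0437 for NEAT1 with Si-FIBP#1.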
